A study of Mus musculus with 40 samples.

Results

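The D-type cyclins (Ccnd1, Ccnd2 and Ccnd3), the kinases they activate (Cdk4 and Cdk6) and the transcription factors Myc and Mycn were followed in mouse neural stem cells after deletion of Id genes. The members were all probes of the Illumina MouseWG-6 array whose gene symbol in the platform annotation is one of these 7 genes. They came to 16 probes of the 45260 probes used, and to 7 of the 19057 genes named by those probes. A D-type cyclin binds Cdk4 or Cdk6, and the complex phosphorylates the retinoblastoma protein, which frees E2F factors to switch on genes of DNA synthesis. Mitogens such as EGF and FGF raise the amount of D cyclins, and MYC proteins, which pair with MAX on E-box DNA, act downstream of the same signals. ID proteins bind E proteins, which also recognise E-boxes, and keep them off DNA.

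The cells were primary neural stem cells from the telencephalon of E13.5 mouse embryos on a 129/Svj and C57Bl/6 hybrid background. They carried floxed Id1 (Id1L/L) and floxed Id2 (Id2L/L), were null for Id3 (Id3-/-) and held the Rosa-Cre-ER allele. They grew on laminin with 2 mitogens, EGF and FGF-2, each at 20 ng/ml. They received 250 nM 4-hydroxytamoxifen (4-OHT), which activates the Cre recombinase and so removes the floxed Id1 and Id2, or vehicle. RNA was taken at 6, 12, 18, 24, 48, 96 and 144 h in both arms. There were 40 arrays in 14 groups, with 3 arrays per group (replicates A, B and C) but 2 at 144 h (replicates A and C). Cre-ER was expressed from the ubiquitous Rosa26 locus, so deletion was not limited to 1 cell type, and Id3 was null in the vehicle cultures too. The labels do not say whether replicates were separate cultures or animals, so each p-value reflects the scatter among these arrays, some of which may be technical.

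Levels are log2 intensities after background correction and quantile normalization, and differences are log2 of 4-OHT over vehicle, with their standard error (SE). A probe entered the test if it was detected, with a detection p under 0.01, on at least 3 arrays. This held for 21740 probes, 12 of the 16 member probes among them. A probe was called when its p from limma, after Benjamini-Hochberg adjustment over all tested probes, was under 0.05. The deletion itself was visible in the targeted genes: an Id2 probe (ILMN_1228557) stood at 7.27 ± 0.44 in 4-OHT and 9.28 ± 0.25 in vehicle cultures at 18 h (SD, n = 3 each; difference -2.01, adjusted p = 1.016e-05). Of the other 2 Id2 probes, ILMN_2887239 also fell by 1.53 at 18 h (adjusted p = 0.0092), while ILMN_1236868 was 0.64 above vehicle at 18 h without a call and fell by 1.73 at 48 h (adjusted p = 0.0439) and further at the later times. The Id1 probe differed by -0.63 at 18 h without a call (adjusted p = 0.9999). It fell by 1.87 at 48 h and was not detected in the 4-OHT arrays at 96 and 144 h, where its level was at least 20.5-fold and 21.1-fold lower. The Id3 probe did not pass the filter. Id4, a family member that is not floxed, was 1.61 higher in 4-OHT than in vehicle cultures at 18 h (ILMN_2678714). On 39 of the arrays between 15884 and 19186 probes were detected. Replicate C of vehicle at 6 h was dim, with 12947 detected probes. Cells of different types were measured together, so fewer cells of a type and less RNA per cell cannot be told apart.

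The members were not equally visible, and each gene is described first by its lead probe, the one with the highest mean level. The lead probe of Ccnd1 (ILMN_1221503) had levels of 12.94 to 13.56. Its raw intensity was never the highest on an array. The lead probes of Cdk4 (ILMN_2690976, 10.78 to 12.08), Ccnd2 (ILMN_2700166, 8.79 to 11.17) and Ccnd3 (ILMN_3131063, 8.997 to 10.32) were detected on 40 arrays, as was a Myc probe (ILMN_2623526, 6.19 to 7.97). Levels of different probes carry each probe's own hybridisation and are not set against each other. The single probes of Cdk6 (ILMN_1259714) and Mycn (ILMN_2619172), a second Myc probe (ILMN_1231123) and a further Ccnd2 probe (ILMN_1235724) were detected on 0 of 40 arrays. No statement on a change of Cdk6 or Mycn is possible from these arrays.

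In the GRCm38.p6 assembly the genes lie, per RefSeq, at chr7:144929931-144939831 (Ccnd1), chr6:127125162-127152188 (Ccnd2), chr17:47505051-47599689 (Ccnd3), chr10:127063535-127067288 (Cdk4), chr5:3341004-3531008 (Cdk6), chr15:61985341-61990361 (Myc) and chr12:12936093-12941836 (Mycn). Promoter windows of 250 bases before to 50 after a start were at hand from RefSeq for 4 of the 7 members. The windows of both kinases are shown because they hold CACGTG, the E-box form that MYC and MAX prefer. The capitals mark each match of CACGTG, a sequence that reads the same on both strands and is 1 form of the general E-box CANNTG.
Cdk4, chr10:127063285-127063584, plus strand: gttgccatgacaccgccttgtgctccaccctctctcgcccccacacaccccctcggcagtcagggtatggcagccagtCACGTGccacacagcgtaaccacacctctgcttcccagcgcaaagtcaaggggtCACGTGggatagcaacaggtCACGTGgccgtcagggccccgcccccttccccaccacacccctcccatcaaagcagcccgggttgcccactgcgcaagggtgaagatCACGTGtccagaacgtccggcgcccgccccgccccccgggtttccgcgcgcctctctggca
Cdk6, chr5:3343643-3343942, plus strand: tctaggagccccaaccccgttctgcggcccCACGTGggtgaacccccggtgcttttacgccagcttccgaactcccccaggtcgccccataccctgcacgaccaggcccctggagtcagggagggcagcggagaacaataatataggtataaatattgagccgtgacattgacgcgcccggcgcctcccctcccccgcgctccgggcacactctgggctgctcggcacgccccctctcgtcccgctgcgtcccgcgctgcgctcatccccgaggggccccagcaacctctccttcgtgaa
The Cdk4 window held 4 CACGTG matches and the Cdk6 window 1. At least 4 matches were found in 8 of 32851 RefSeq mouse windows of this length (0.0244%), while at least 1 CACGTG was found in 7.15% and at least 1 CANNTG in 72.3%. The Mycn window (chr12:12941787-12942086, minus strand) held 2 CANNTG matches and no CACGTG, and both Ccnd3 windows held neither. These are matches of letters, and binding was not measured here.

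With each array treated as an independent sample, 0 of the 12 tested member probes were called by limma at any of the 7 times. Of all tested probes, 0% were called at both 6 h and 12 h. The share was 0.0736% at 18 h and 0.248% at 24 h, then 0.952% at 48 h. At 96 h it was 4.5%, and 6.61% of probes were called at 144 h. At an unadjusted p under 0.05 the member probes numbered 0 at 6 and 12 h, 1 each at 18 and 24 h, 3 each at 48 and 96 h, and 1 at 144 h. That is 25% of the members at 48 h beside 6.24% of all tested probes, 25% beside 13.4% at 96 h, and 8.33% beside 16.7% at 144 h, where the members lay below the share of all probes. All 3 at 48 h, all 3 at 96 h and the 1 at 144 h were Ccnd2 probes. The 12 probes had a median difference of 0.01 at 48 h, of 0.02 at 96 h and, at 144 h, of -0.03, beside 0.00, 0.01 and 0.01 over all tested probes. In the F test for an effect at any time 1 member probe was called, Ccnd2 ILMN_1225932 (F = 4.136, limma adjusted p = 0.0411), where 6.05% of all probes were called.

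**Figure D1:**
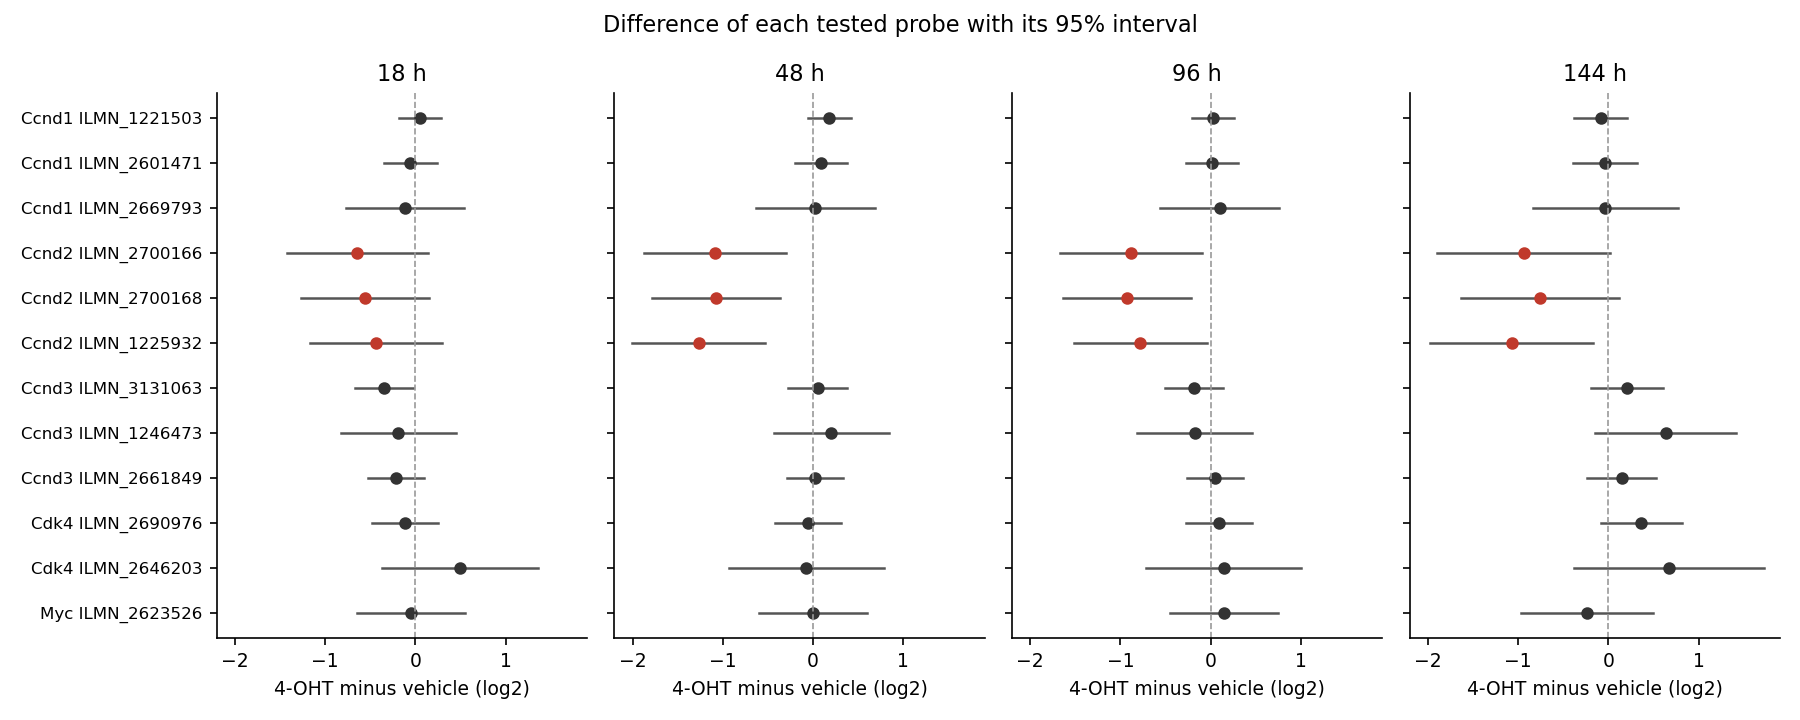
Difference between 4-OHT and vehicle (log2, x axis) of each tested member probe at 18, 48, 96 and 144 h, with Ccnd2 probes in red. Bars are 95% intervals from limma. The 3 Ccnd2 probes lie below 0 at all 4 times, from -0.44 at 18 h to -1.27 at 48 h at the extremes, and the other members lie between -0.35 and 0.67.

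Ccnd2, a D cyclin prominent in neural progenitors, was the member furthest below its vehicle level in the 4-OHT cultures from 48 h on. At 48 h the lead probe (ILMN_2700166) read 9.02, 8.79 and 9.82 in 4-OHT replicates A, B and C, against 10.16, 10.36 and 10.38 in vehicle. Every 4-OHT array lay below every vehicle array. The share of all tested probes with separate arms was not counted, here or at the other times. The means were 9.21 ± 0.54 in 4-OHT and 10.30 ± 0.13 in vehicle (SD, n = 3 each), a difference of -1.09 ± 0.39 (SE), or 2.13-fold lower, with a 95% interval of -1.87 to -0.30. The limma adjusted p was 0.323 without pairing. Replicates of the same letter deviated together from 18 to 96 h, and with letter as a block the same difference had an SE of 0.23 and was called (limma adjusted p = 0.00501, with 3.5% of all probes called in that fit). At 48 h, however, 4-OHT A matched vehicle B best and 4-OHT B matched vehicle A best. Letters A and B were thus not told apart as pairs, while C matched C. With a block that only set C apart from A and B, the SE was 0.30 (limma adjusted p = 0.0359, 3.97% of all probes called).

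The other detected Ccnd2 probes gave differences of like size at 48 h. Probe ILMN_2700168 read 8.72, 8.35 and 9.20 in 4-OHT, against 9.82, 9.97 and 9.70 in vehicle (difference -1.08 ± 0.35, limma adjusted p = 0.218; 0.00554 with the replicate block). Probe ILMN_1225932 read 6.54, 6.20 and 7.16 in 4-OHT, against 7.62, 8.05 and 8.05 in vehicle (difference -1.27 ± 0.36, limma adjusted p = 0.106; 0.00468 with the replicate block). The groups did not overlap for either probe. The probes measure 1 transcript pool in the same arrays and are not replicates of each other.

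**Figure D2:**
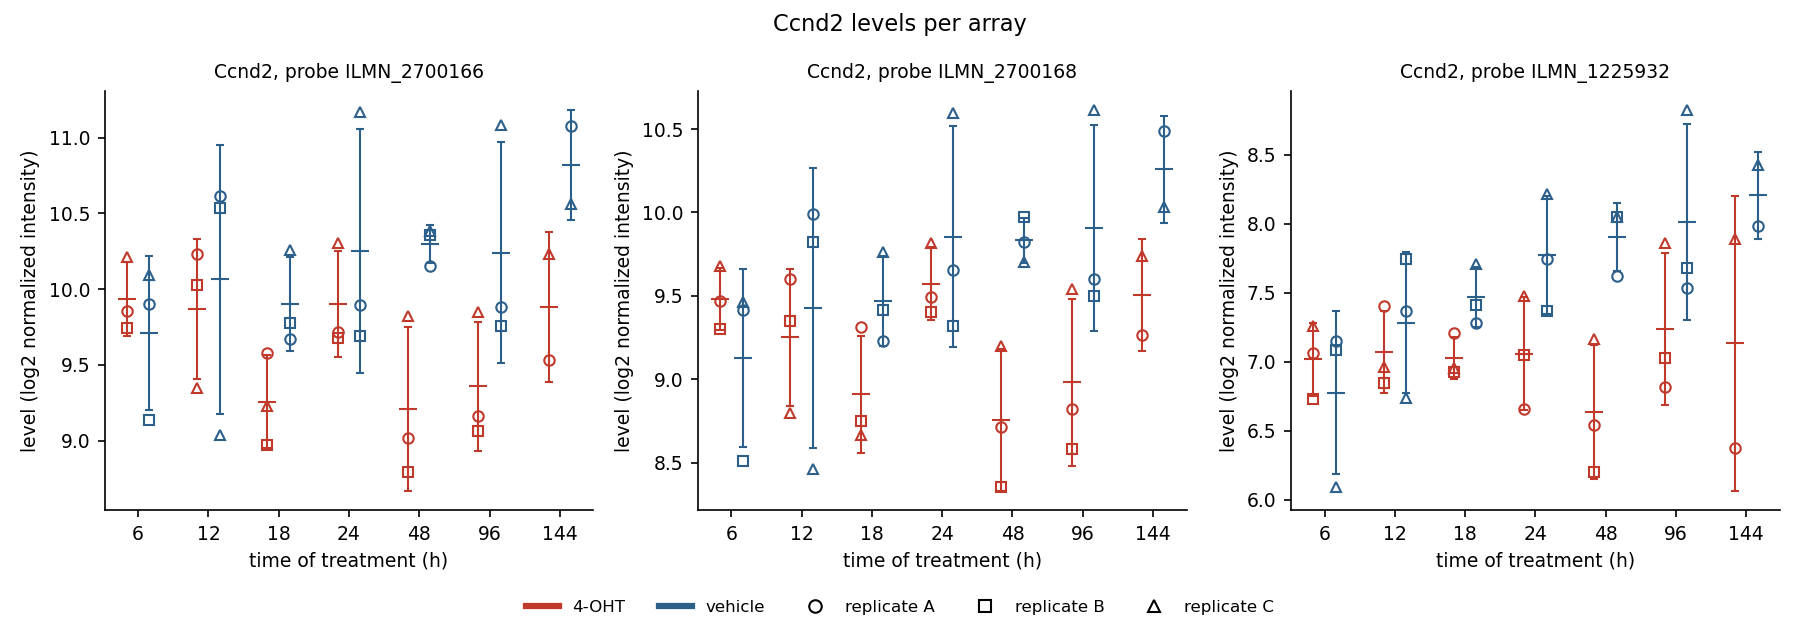
Levels (log2, y axis) of the 3 detected Ccnd2 probes on every array by time (hours, x axis), with 4-OHT in red to the left of vehicle in blue, markers by replicate letter and bars for mean ± SD. At 48 h the 4-OHT arrays of the lead probe lie between 8.79 and 9.82, below the vehicle arrays at 10.16 to 10.38.

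At 96 h the lead Ccnd2 probe (ILMN_2700166) read 9.16, 9.07 and 9.85 in 4-OHT, against 9.88, 9.76 and 11.08 in vehicle. Replicate C was the highest in both arms, and the groups overlapped because 4-OHT replicate C exceeded vehicle replicate B. The difference was -0.88 ± 0.39 (limma adjusted p = 0.271), and with the replicate block it was called (adjusted p = 0.0103, 11.7% of all probes called). Probe ILMN_2700168 was lower by a similar amount at 96 h (-0.92, adjusted p = 0.159; 0.00725 with the block). Probe ILMN_1225932 differed by -0.78 (adjusted p = 0.324; 0.0562 with the block).

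At 144 h, with 2 arrays per arm, the lead probe read 9.53 and 10.23 in 4-OHT, against 11.08 and 10.56 in vehicle. The arms did not overlap, but the difference of -0.94 ± 0.47 had a 95% interval of -1.90 to 0.02 (limma adjusted p = 0.318). The Ccnd2 probe ILMN_1235724, undetected on all arrays, also had separate arms at 144 h (difference -0.06). Separate arms of 2 arrays each thus also occurred at background level. Probe ILMN_1225932 read 6.38 and 7.89 in 4-OHT, against 7.98 and 8.43 in vehicle (-1.07 ± 0.44, adjusted p = 0.179). Probe ILMN_2700168 differed by -0.76 (adjusted p = 0.411). With the 2 series of array numbers in the labels as a block, the lead probe was not called at 144 h (adjusted p = 0.0879), while ILMN_1225932 was (adjusted p = 0.0135, 16.8% of all probes called). At 144 h this block is the 2 letter pairs A and C, with the spread taken from all times.

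Of the earlier times, only 18 h had arms of the lead Ccnd2 probe that did not overlap. The lead probe read 9.86, 9.74 and 10.21 in 4-OHT and 9.90, 9.14 and 10.10 in vehicle at 6 h (difference 0.23). At 12 h it read 10.23, 10.02 and 9.35 in 4-OHT and 10.62, 10.54 and 9.04 in vehicle (-0.20). At 18 h the 4-OHT arrays, at 9.58, 8.97 and 9.23, all lay below the vehicle arrays at 9.67, 9.78 and 10.26 (-0.64 ± 0.39, limma adjusted p = 0.9999). The arms of ILMN_1225932 were also apart at 18 h, at 6.93 to 7.21 in 4-OHT and 7.28 to 7.71 in vehicle. At 24 h the arms overlapped again, with 9.72, 9.68 and 10.30 in 4-OHT and 9.89, 9.69 and 11.17 in vehicle (-0.35). Probe ILMN_1225932 differed by -0.44 at 18 h and -0.72 at 24 h, and probe ILMN_2700168 by -0.56 and -0.28. The limma F test for a change of the 4-OHT effect between 18 and 144 h called 0 member probes, with 0 at an unadjusted p under 0.05 (Ccnd2 lead F = 0.5461, adjusted p = 1), where 0.819% of all probes were called. Without replicate C, which leaves 1 array per arm at 144 h, it called all 3 detected Ccnd2 probes (lead adjusted p = 0.0102), with 10.8% of all probes called. In that fit the spread of the lone arrays at 144 h was taken from the other groups.

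Arrays of the same letter were then compared pair by pair, although letters A and B were not told apart as pairs at 18, 24 and 48 h. For the lead Ccnd2 probe (ILMN_2700166) the 4-OHT array lay below the vehicle array of the same letter in 14 of 14 pairs from 18 to 144 h, by a median of -0.77 and over a range of -1.57 to -0.01. Probe ILMN_1225932 was lower in 14 of 14 pairs and ILMN_2700168 in 12 of 14. Of all tested probes, 2.26% were lower in 14 of 14 pairs and 9.09% in at least 12. By letter, the lead probe differed at 48 h by -1.14 (A), -1.57 (B) and -0.56 (C), and at 96 h by -0.72, -0.69 and -1.23. The array numbers in the labels form separate series for letter C and for letters A and B at 18 to 144 h. Letter C cannot be told apart from its series, while letters A and B share theirs. With the array series as the block, the lead probe was called at 48 h (limma adjusted p = 0.0359, 3.97% of all probes called) but not at 96 h (adjusted p = 0.056). Without the C arrays and with no block, the lead probe differed by -1.35 at 48 h and by -0.71 at 96 h.

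**Figure D3:**
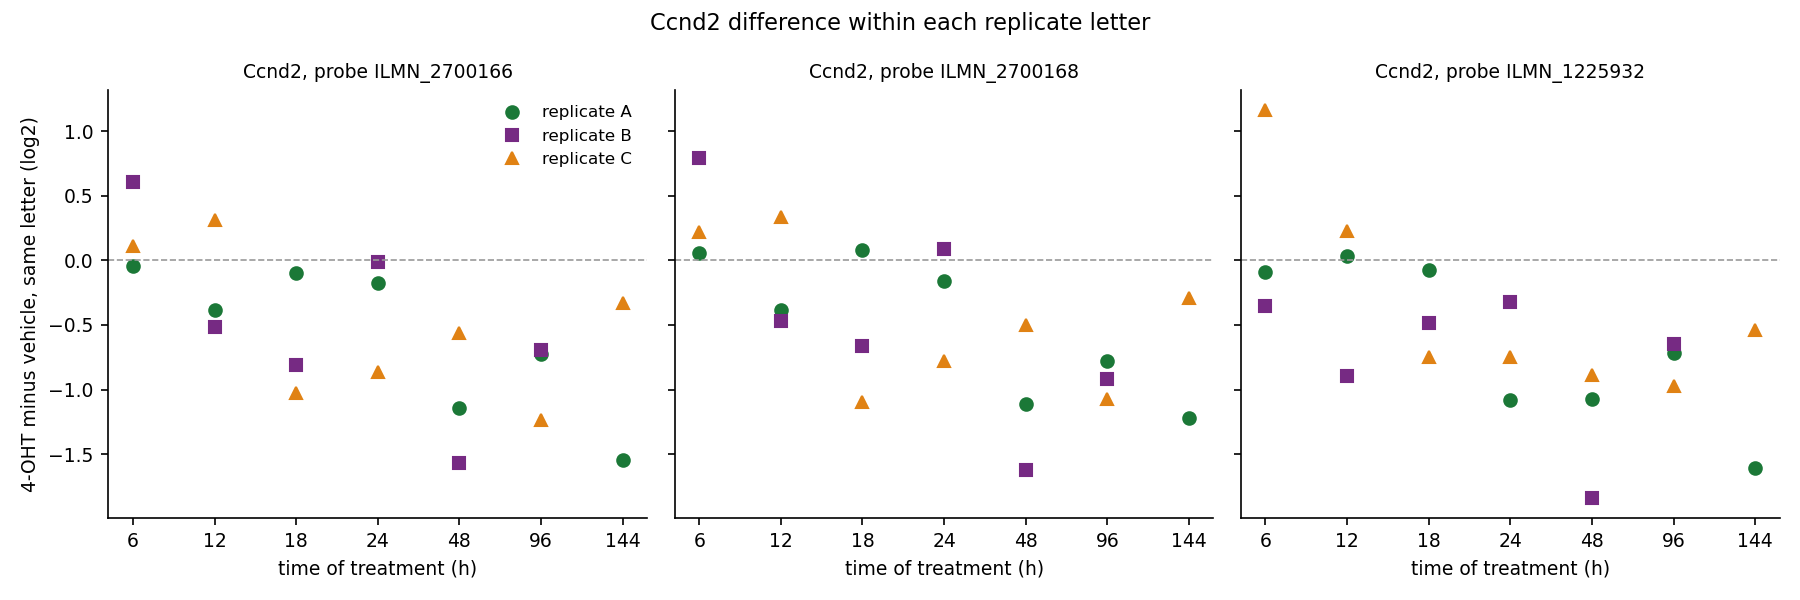
Difference between the 4-OHT and the vehicle array of the same replicate letter (log2, y axis) for the detected Ccnd2 probes by time (hours, x axis). From 18 h on the lead probe is below 0 in all 14 pairs, while at 6 and 12 h the signs are mixed.

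Ccnd1, the most widely expressed D cyclin and a target of growth-factor signalling, differed little between the arms. At 48 h the lead probe (ILMN_1221503) read 13.39, 13.53 and 13.10 in 4-OHT, against 13.24, 13.20 and 13.04 in vehicle. At 96 h it read 13.14, 13.12 and 13.18 in 4-OHT and 12.94, 13.00 and 13.42 in vehicle, and at 144 h 13.27 and 13.12 in 4-OHT and 13.26 and 13.31 in vehicle. The arms overlapped at each of these times. Over the 7 times its differences ran from -0.09 to 0.23, and the widest 95% bounds were -0.37 and 0.46. Changes beyond these bounds are outside the intervals of the lead probe, while smaller ones were not resolved. The other Ccnd1 probes had wider bounds, -0.39 and 0.58 for ILMN_2601471 and -0.84 and 0.97 for ILMN_2669793.

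The arms of Ccnd1 were separated at 6 h, where the lead probe read 13.52, 13.56 and 13.55 in 4-OHT, against 13.38, 13.37 and 13.20 in vehicle (0.23 ± 0.12, limma adjusted p = 0.743). The lowest of these vehicle values came from the dim array. At 24 h probe ILMN_2601471 read 13.04, 13.06 and 12.91 in 4-OHT, against 12.75, 12.54 and 12.85 in vehicle (0.29 ± 0.14, unadjusted p = 0.0472, limma adjusted p = 0.9999). The lead probe did not show this at 24 h, with a difference of -0.01. The remaining Ccnd1 probe (ILMN_2669793) gave 0.31 at 24 h with overlapping arms, and it had 1 low array, 4-OHT replicate C at 18 h with 9.38 beside 11.04 in replicates A and B.

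Ccnd3, the D cyclin associated with differentiating cells in several tissues, also overlapped between the arms at all 7 times in its lead probe (ILMN_3131063). At 18 h it read 9.51, 9.40 and 9.77 in 4-OHT, against 9.56, 9.84 and 10.32 in vehicle (-0.35 ± 0.16, unadjusted p = 0.0368, limma adjusted p = 0.9999). At 96 h it read 9.75, 9.63 and 9.78 in 4-OHT and 9.94, 9.77 and 10.002 in vehicle. At 144 h it read 10.08 and 9.88 in 4-OHT and 9.89 and 9.66 in vehicle, so the sign was not stable with time. Its differences over the 7 times ran from -0.35 to 0.21, inside 95% bounds of -0.67 and 0.60. A dimmer probe (ILMN_1246473, detected on 38 arrays) read 6.14 and 5.97 in 4-OHT, against 5.28 and 5.56 in vehicle, at 144 h (0.64 ± 0.38, adjusted p = 0.454). The remaining one (ILMN_2661849) was detected on 3 arrays.

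Cdk4, the kinase partner of the D cyclins, had no called difference between the arms. The lead probe (ILMN_2690976) read 11.41, 11.61 and 11.94 in 4-OHT, against 11.63, 11.71 and 11.80 in vehicle, at 48 h, and 11.41, 11.38 and 11.75 in 4-OHT, against 11.33, 11.21 and 11.73 in vehicle, at 96 h. At 144 h it read 11.17 and 11.61 in 4-OHT and 10.78 and 11.27 in vehicle (0.37 ± 0.22, limma adjusted p = 0.458). Over the 7 times the differences lay between -0.29, at 6 h, and this value, with 95% bounds of -0.66 and 0.82 at the extremes. The limma F test for a change of the effect between 18 and 144 h did not call this probe (F = 0.8928). At 6 h every 4-OHT array of the lead probe lay below every vehicle array, at 11.53 to 11.59 in 4-OHT and 11.61 to 11.995 in vehicle (adjusted p = 0.783). The dimmer probe (ILMN_2646203) had the opposite sign at 6, 12 and 18 h (0.48, 0.52 and 0.49, lowest adjusted p over the 7 times 0.626), so the probes do not give 1 direction for those times. At 144 h the dimmer probe read 7.82 and 8.31 in 4-OHT, against 7.39 on both vehicle arrays (0.67 ± 0.52, adjusted p = 0.626), the largest positive difference among the tested member probes.

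The lead probe of Cdk4, but not its dimmer probe, was called for a change with time in the vehicle cultures, and the call did not hold in all settings. Among vehicle arrays from 18 to 144 h the F test called 1 of 12 member probes, the Cdk4 lead probe (F = 5.446, limma adjusted p = 0.0192), where 14% of all probes were called. The dimmer Cdk4 probe (ILMN_2646203) was not called (F = 1.851, limma adjusted p = 0.374). The lead probe read 11.80, 12.08 and 11.82 in vehicle at 18 h. Relative to that time, vehicle at 24 h differed by -0.23, vehicle at 48 h by -0.19 and vehicle at 96 h by -0.48 (adjusted p = 0.110), and at 144 h it fell by 0.88 (SE 0.20, adjusted p = 0.00288). In 4-OHT arrays the 144 h level differed from the 18 h level by -0.39 ± 0.20 (adjusted p = 0.211), and the limma F test over time called 0 member probes there, with 0 at an unadjusted p under 0.05, where 10.1% of all probes were called. The difference between the arms' changes was 0.48 ± 0.29 (adjusted p = 0.735), so the arms were not shown to differ in their course. With each array centred on its median in place of quantile normalization the vehicle call was lost (F = 1.229, adjusted p = 0.832), although the 144 h difference was -0.68 and the 96 h difference -0.47. That fit called 5.98% of all probes. The Cdk4 call was also lost without replicate B (limma adjusted p = 0.316), where 1.86% of all probes were called. It was lost without replicate A too, a fit with fewer calls among all probes that leaves 1 vehicle array at 144 h. In the same vehicle arrays the summed intensity of 10 mitotic genes was 11470 to 16880 at 18 h and 1940 to 8472 at 144 h, and its part in the Cdk4 result was not tested.

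Myc, a growth-promoting transcription factor, showed no separation of the arms on its detected probe (ILMN_2623526). At 6 h it read 7.55, 7.48 and 7.39 in 4-OHT, against 7.39, 7.23 and 7.95 in vehicle. At 48 h it read 6.90, 6.52 and 6.97 in 4-OHT and 6.97, 6.82 and 6.63 in vehicle, and at 96 h 6.53, 6.60 and 6.39 in 4-OHT and 6.47, 6.30 and 6.30 in vehicle. The arms overlapped at all 7 times, and 7 of 14 letter pairs from 18 to 144 h were negative. Differences ran from -0.24 to 0.15 with 95% bounds of -0.97 and 0.75, and the lowest limma adjusted p was 0.880. The replicates spread most at 144 h, with 7.50 and 6.50 in 4-OHT and 7.97 and 6.49 in vehicle: replicate A was high in both arms. The Mycn probe lay between 4.11 and 4.33 and the Cdk6 probe between 4.18 and 4.54 on all 40 arrays, which is the level of undetected probes.

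**Figure D4:**
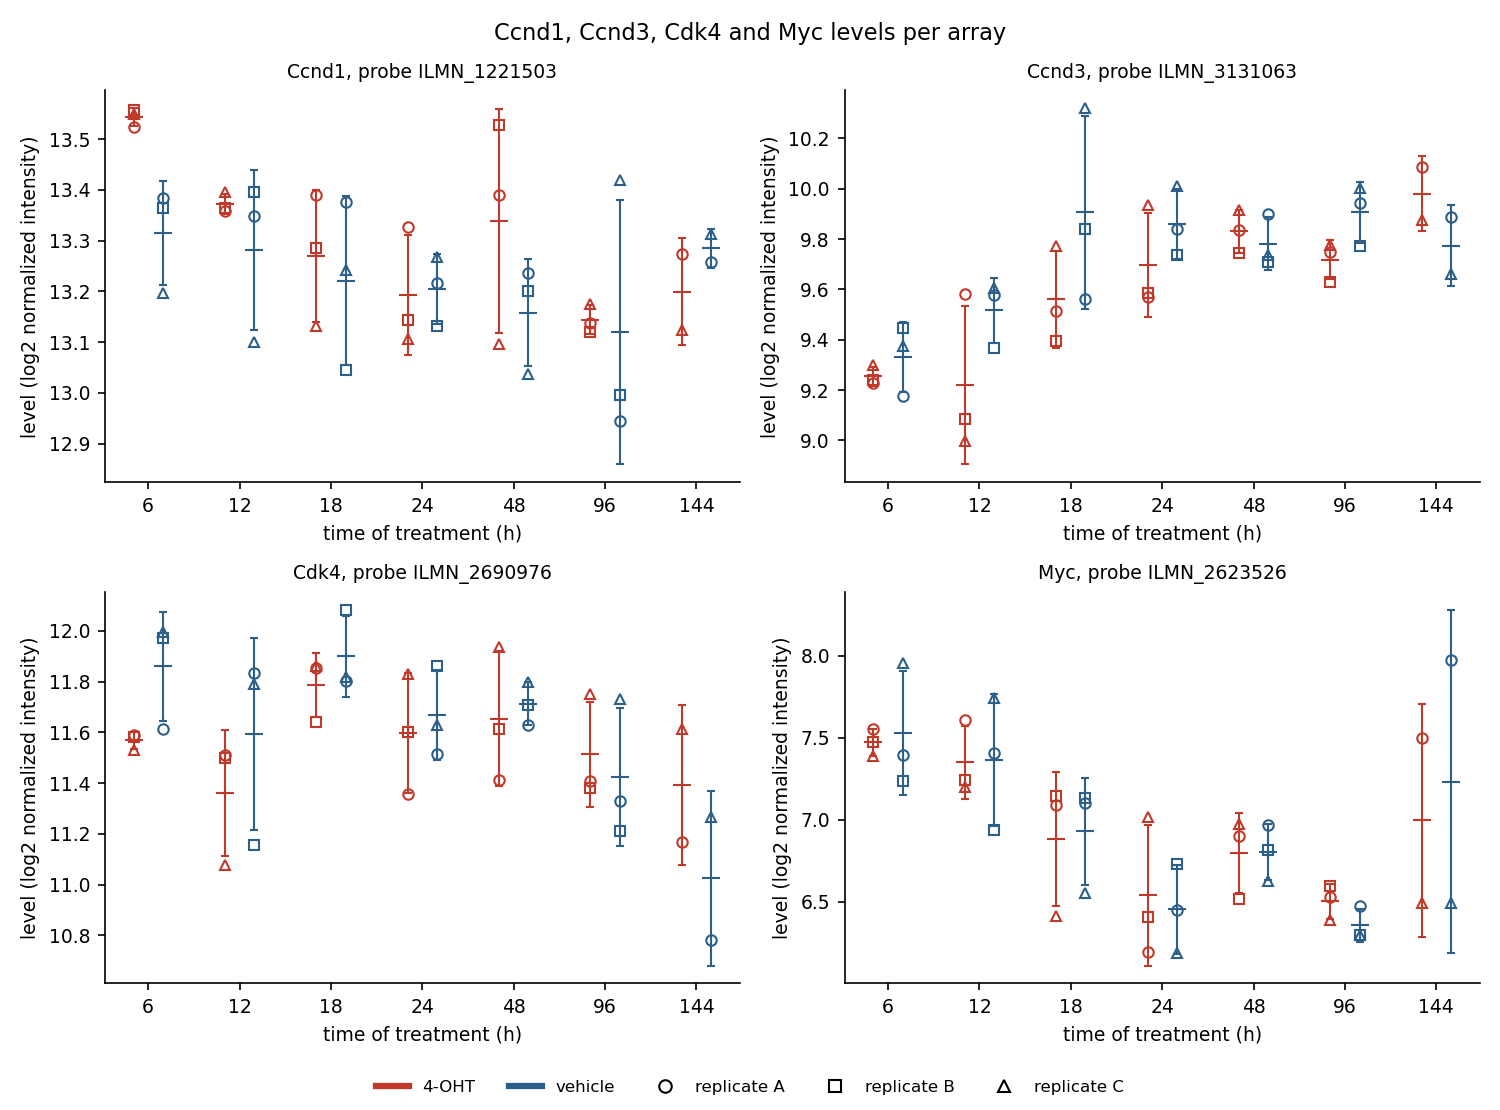
Levels (log2, y axis) of the lead probes of Ccnd1, Ccnd3 and Cdk4 and the detected Myc probe on every array by time (hours, x axis), with 4-OHT in red to the left of vehicle in blue and bars for mean ± SD. The arms overlap at 48 and 96 h in all 4 genes, and vehicle Cdk4 is lowest at 144 h, at 10.78 and 11.27.

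Genes that act on or after the D cyclins were read by the lead probe of each gene. Among all 11071 lead probes, 0.831% were called higher and 0.379% lower at 48 h. These shares were 3.02% and 2.68% at 96 h, then 4.21% and 3.81% at 144 h. Of the 7 CDK inhibitors tested, 1 was called higher and 0 lower at 48, 96 and 144 h. This was Cdkn1c, which encodes p57, an inhibitor of cyclin-dependent kinases linked to cell-cycle exit. At 96 h Cdkn1c averaged 10.23 in 4-OHT and 7.72 in vehicle (2.52 ± 0.51, limma adjusted p = 0.00175), with 2.26 at 48 h and 2.87 at 144 h. The call at 96 h held without any 1 of the 6 arrays, while at 48 h it was lost without any array but 4-OHT replicate C (2.06 to 2.32), and at 144 h without 4-OHT replicate A (2.12). With all arrays of replicate A or of replicate B left out, the call at 96 h was lost too (2.36 and 2.38). Fewer of all probes were called in those fits, 0.777% at 96 h without replicate B. Cdkn2b, which encodes an inhibitor of Cdk4 and Cdk6, was called lower at 96 h with the replicate block (-0.99, adjusted p = 0.00291; 7.8% of all lead probes called lower) and with the array series as a block (adjusted p = 0.00142; 8.12% called lower). The series block, which has 2 pairs at 144 h, also called it lower there (-1.05, adjusted p = 0.00426, with 10.4% called lower). The median difference of the 7 inhibitors was -0.11 at 96 h.

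The 13 pocket protein and E2F genes, the readers of Cdk4 activity, held 1 called higher and 2 lower at 96 h (median -0.14). E2f2, an E2F activator, was 1.65 ± 0.32 higher in 4-OHT (8.88 in 4-OHT and 7.23 in vehicle, limma adjusted p = 0.00103), and it was also called at 48 h (1.41) and 144 h (1.97). Under median centring it was called at 96 h but not at 48 h (1.47) or 144 h (1.76), and with 1 array left out at 48 h it was called only when that array was 4-OHT replicate C. Its call at 96 h was lost without all arrays of replicate A (1.44) or of replicate B (1.71). E2f1, the founding activator of DNA synthesis genes, fell by 0.88 (SE 0.27, adjusted p = 0.0497). E2f5, which acts with pocket proteins as a repressor, fell by 0.80 (SE 0.19, adjusted p = 0.00852). Under median centring the calls of E2f1 (-0.78) and E2f5 (-0.69) were lost. E2f1 was called only without 4-OHT replicate C when 1 array was left out, and E2f5 was not called without vehicle replicate A (-0.74) or B (-0.70). With the replicate block E2f1 was also lower at 48 h (-0.63, adjusted p = 0.00232; 2.14% of all lead probes called lower there). Neither was called at 144 h, where they differed by -0.09 and -0.40.

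Of 18 genes of the G1 to S transition tested, 0 were called at 48 and 96 h by limma, with 0 and 1 at an unadjusted p under 0.05 and medians of -0.09 and -0.06. The largest differences at 96 h were those of Tk1, thymidine kinase (-0.55), and Cdk2, the partner of E cyclins (-0.48). With the replicate block 3 were called lower at 96 h, Tk1 (adjusted p = 0.0327), Cdk2 (adjusted p = 0.00656) and the helicase subunit gene Mcm4, where 7.8% of all lead probes were called lower. At 144 h 2 were called higher: Mcm5 (9.87 in 4-OHT and 8.49 in vehicle, 1.38 ± 0.42, adjusted p = 0.0401) and Mcm6 (9.94 in 4-OHT and 9.01 in vehicle, 0.93 ± 0.28, adjusted p = 0.038), subunits of the replicative helicase, named here after their values were seen. The median was then 0.71 and 17 of 18 differences were positive, while the median over all tested probes was 0.01. That median was 0.08 without vehicle replicate A and 1.30 without vehicle replicate C, and under median centring 0 were called. Without vehicle replicate A the differences of Mcm5 and Mcm6 were 0.23 and 0.45, without 4-OHT replicate C 0.80 each, and neither was then called. The call of Mcm6 was also lost without 4-OHT replicate A (1.05). With the array series as a block, 12 of the 18 were called higher at 144 h, where 10.1% of all lead probes were: Mcm2, Mcm3, Mcm4, Mcm5, Mcm6, Mcm7, Pcna, Tk1, Tyms, Rrm2, Ccne2 and Cdc6. These calls rest on 2 pairs of arrays at 144 h, with the spread taken from all times. At 96 h that block called 4 lower, where 8.12% of all lead probes were called lower. The 10 mitotic genes tested had 0 calls by limma at 48, 96 and 144 h, and 0 at an unadjusted p under 0.05 (Cdk1, the mitotic kinase, -0.37 and Aurkb, an Aurora kinase, -0.35 at 96 h). With the array series as a block, again 2 pairs at 144 h, 3 of them, Birc5, Bub1b and Kif11, were called higher at that time. Their median at 144 h was 0.33, and it turned to -0.62 without vehicle replicate A and -0.41 without 4-OHT replicate C. It was 1.48 without vehicle replicate C and 1.46 without 4-OHT replicate A, and each of these fits leaves a lone array in that arm. Their summed intensity at 144 h was 2766 to 10140 in 4-OHT and 1940 to 8472 in vehicle, and their part in the helicase result was not tested.

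**Figure D5:**
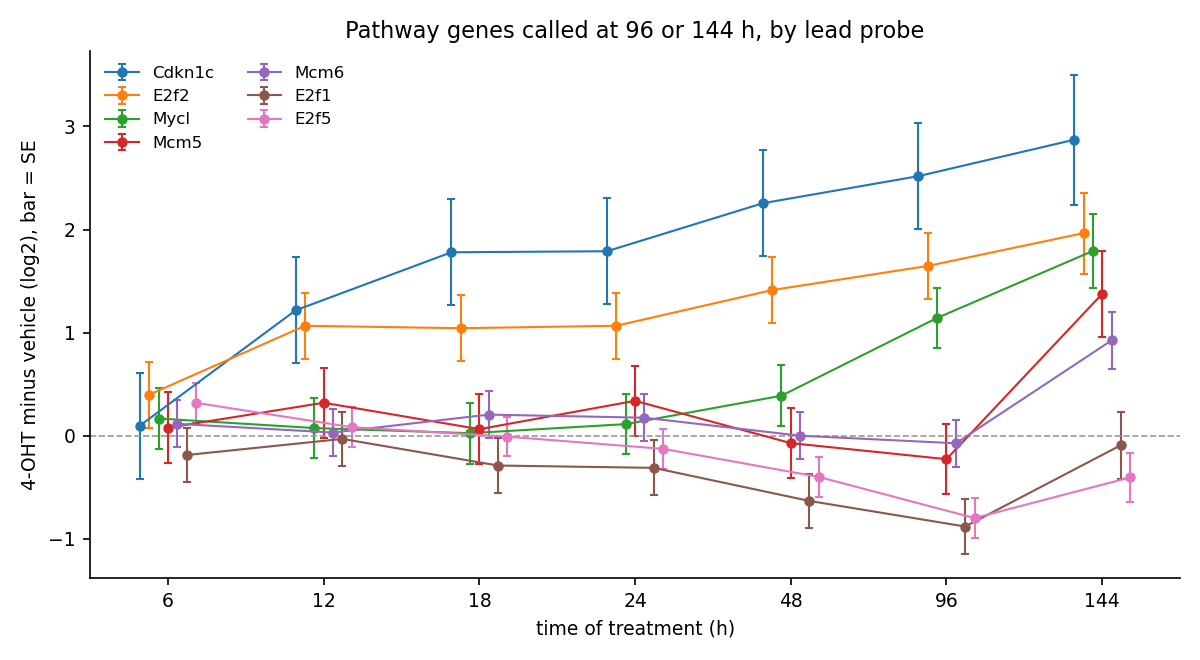
Difference between 4-OHT and vehicle (log2, y axis, mean ± SE from limma) by time (hours, x axis) for Cdkn1c, E2f2, Mycl, Mcm5, Mcm6, E2f1 and E2f5. Cdkn1c, E2f2 and Mycl lie above 0 at 96 and 144 h, while Mcm5 and Mcm6 stand apart from 0 at 144 h.

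In the MAX network, the partners and rivals of MYC, 1 of 14 genes was called, Mycl at 96 and 144 h. Mycl, which encodes L-MYC, another MYC family member, averaged 9.05 in 4-OHT and 7.91 in vehicle at 96 h (1.14 ± 0.29, limma adjusted p = 0.0155) and was 1.79 ± 0.36 higher at 144 h (adjusted p = 0.00119). Both calls were lost under median centring, where the differences were 1.21 and 1.59, and at 96 h the call was lost without vehicle replicate C (0.79) and without 4-OHT replicate A (0.90) or B (0.93). With the replicate block Mycbp, whose protein binds MYC, was called lower at 96 h (-0.55, adjusted p = 0.0219), and with the array series as a block at 96 h (adjusted p = 0.0164) and 144 h (-0.76, adjusted p = 0.00451). The call at 144 h rests on 2 pairs. The medians of the network were 0.01 at 96 h and 0.13 at 144 h. Of 21 tested MYC target genes, 0 were called by limma at 48, 96 or 144 h, with 0, 2 and 2 at an unadjusted p under 0.05 and medians of -0.08 at 96 h and 0.07 at 144 h. The largest differences among them at 96 h were those of the transferrin receptor Tfrc (-0.44) and of Odc1, the first enzyme of polyamine synthesis (-0.43; adjusted p = 0.034 with the replicate block). Of 11 genes for the turnover of D cyclin and MYC proteins, 0 were called by limma at these times, with 0, 0 and 1 at an unadjusted p under 0.05 (Fbxo31 0.40 and Fbxo4 -0.30 at 96 h, F-box proteins of cyclin D ubiquitination).

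The cultures expressed neural stem cell markers: Nes, Sox2, Fabp7, Vim and Hes1 were detected on 40 arrays, while Pax6 was detected on 5, Sox1 on 2 and Msi1 on 0. Most markers did not pass the test at 48 h: 9 of 10 stem cell, 6 of 8 oligodendrocyte lineage and all of the 6 neuron and 6 astrocyte markers were not called. Of 10 tested stem cell markers, 1 fell at 48, 96 and 144 h, the glutamate transporter gene Slc1a3 (by 1.21 at 96 h). Its call at 48 h was lost without any array but 4-OHT replicate C, that at 144 h without 4-OHT replicate A (-0.98), and all 3 under median centring, where the differences were -1.01 at 48 h, -1.16 at 96 h and -1.35 at 144 h. The summed intensity of the 10 was 11410 to 14350 in 4-OHT and 17320 to 18630 in vehicle at 48 h, and 13580 to 16080 in 4-OHT and 21570 to 24560 in vehicle at 96 h. Of 8 tested oligodendrocyte lineage markers, 2 rose at 48 h (Cnp and Gpr17) and 6 at 96 and 144 h (at 96 h Gpr17 3.75, Mbp 3.53 and Sox10 2.98). Their sum was 2448 to 3596 in 4-OHT and 892.9 to 1025 in vehicle at 48 h, and 3502 to 11490 in 4-OHT and 740.1 to 1536 in vehicle at 96 h, with Mog detected on 0 arrays. The calls of Mbp and Sox10 at 96 h were lost without all arrays of replicate A (3.33 and 2.69) or of replicate B (3.25 and 2.93). At 144 h the stem cell sum was 12650 to 16110 in 4-OHT and 24080 to 24600 in vehicle, and the oligodendrocyte lineage sum 9722 to 15600 in 4-OHT and 813.9 to 1200 in vehicle. A sum follows its brightest genes. The median log2 difference of the 10 stem cell markers was -0.05 at 48 h, with 5 negative and 5 positive. It was -0.32 at 96 h (8 negative, 2 positive) and -0.06 at 144 h (6 negative, 4 positive). Of 6 neuron markers, 0 were called by limma at 96 h, with 3 at an unadjusted p under 0.05, and 3 rose at 144 h (Dcx 1.98, Syp 1.17 and Map2 0.60), named after their values were seen. None of these 3 was called at 144 h without 4-OHT replicate A (Dcx 1.48, Syp 1.24 and Map2 0.38). Syp and Map2 were also not called under median centring (0.98 and 0.37) or without vehicle replicate A (0.78 and 0.57), Syp not without 4-OHT replicate C (1.10), and Map2 not without vehicle replicate C (0.64). Of 6 astrocyte markers, 1 rose and 1 fell at 96 h, and 1 rose and 2 fell at 144 h. With the replicate block at 96 h, where 6.48% of all lead probes were called higher and 7.8% lower, 1 stem cell marker was up (Nes) and 2 down (Slc1a3 and Vim), and 7 of 8 oligodendrocyte lineage markers were up. In that fit 2 neuron markers were up and 1 down, and 1 astrocyte marker was up and 5 down. Without replicate C more of the 10 stem cell markers were called lower at 96 h, in a fit that also called more of all probes. None of the microglial and vascular markers passed the filter, and 1 ependymal marker did and was not called. The part of these markers in the Ccnd2 and pathway results was not tested.

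Over the 14 group means of log2 level, the profiles closest to each lead probe were found by Pearson correlation, given as a description since the means share arrays and normalization. For Ccnd2 they were Mief2 (0.90), Slc4a4 (0.87) and Rhoc (0.86). For Ccnd1 they were Celf1 (0.93), Ubr4 (0.91) and Slc22a18 (0.90), and for Ccnd3 Gria2 (0.92), Nxph1 (0.92) and Zfpm2 (0.91). For Cdk4 they were Psmd13 (0.95), Bex2 (0.91) and Anapc5 (0.91), and for Myc Ube2j2 (0.95), Lamc1 (0.94) and Elac2 (0.94).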

How the data were processed

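Per the file headers, the deposited intensity values are probe signals with a detection p-value per array, and the authors also deposited log2 values, quantile normalized with lumi per the series' design text. GenomeStudio and lumi are named in the submitters' processing notes, with versions not given in the sources used here. Of 45281 probes, 21 whose columns were out of step were left out. Symbols came from the platform annotation: 34872 probes had 1 symbol, 18 several and 10370 none. Intensities were background-corrected and quantile normalized with neqc (offset 16) in limma 3.58.1 (R 4.3.3), and 1 model with a mean per group was fitted to 40 arrays (lmFit, eBayes with trend, 26 residual degrees of freedom, Benjamini-Hochberg adjustment over 21740 probes). The number of arrays limits the precision. The test was run on simulated data with independent noise on each array, which does not cover arrays that deviate together. All member probes are described; from each list the text names up to 3 genes called at 96 h, or else the 2 with the largest difference there. The members and lists were chosen with earlier results of these data known. Within groups the arrays correlated at 0.950 to 0.997, and 0 were identical. Same-letter arrays of the arms deviated together at 18, 24, 48 and 96 h (correlations of deviations 0.368 to 0.783), so the letter, whose meaning the labels do not give, was used as a block there, as an alternative to the unpaired model. The best match was not always the same letter. At 18 and 24 h 4-OHT B matched vehicle A best, and at 48 h A and B matched crosswise, while C matched C at these times. At 6 and 12 h it was not above 0.1 in every pair, and at 144 h there were 2 pairs. The array series block rests on these same 2 pairs at 144 h, with the spread taken from all times. Alternatives were other normalization, offset, filters, blocks, array weights and left-out arrays. The alternatives for the gene lists were chosen after seeing the data.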

Additional observations from a re-analysis of the deposited data

How the results depend on the processing

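The 12 tested member probes gave 0 calls at 6 and 12 h in every alternative run. The authors' log2 values, median centring, an offset of 50, no filter, a filter of 20 arrays and each time fitted alone also gave 0 calls at each of the 7 times. With the replicate block, 3 probes were called at 48 h and 2 each at 96 and 144 h, all of Ccnd2 (lead probe at 144 h, adjusted p = 0.0208, with 16.3% of all probes called), and 4 in the test at any time (3 of Ccnd2 and Ccnd3 ILMN_1246473, adjusted p = 0.0466, with 17.8% of all probes called); the block changed no other member call. The cyclin D pathway and marker lists also had more calls at 144 h with the replicate block, where 9.71% of all lead probes were called higher and 10.2% lower: 11 higher of the G1 to S genes, 3 of the mitotic genes and 8 of the oligodendrocyte lineage markers, with Cdkn2b and Mycbp lower. The array series as a block gave 3 calls at 48 h, 2 at 96 h and 1 at 144 h. The first array series alone (replicates A and B) gave 3 calls at 24 h (5.39% of all probes), 3 at 48 h (8.34%) and 4 at 96 h (20.4%). Those at 24 h were Ccnd1 ILMN_2669793 (0.62), Ccnd1 ILMN_2601471 (0.41) and Ccnd2 ILMN_1225932 (-0.70), and at 96 h Ccnd1 ILMN_2669793 (0.33) joined the Ccnd2 probes. Array weights, whose fit stopped before its convergence tolerance, gave 1 call at 18 h, 3 at 24 h, 4 each at 48 and 96 h, and 8 in the test at any time, beside 3.88%, 13.3%, 13.4%, 34.5% and 42.1% of all probes, with Ccnd1 ILMN_2601471 at 24 h (0.42) and the Ccnd3 lead probe at 96 h (-0.27) among them. The test at any time, with 1 call otherwise, gave 0 under median centring and 0 without the filter. The time test in vehicle gave 0 under median centring, where 5.98% of all probes were called. The cause of these differences was not tested. Leaving out replicates gave 0 to 3 calls at each of 48, 96 and 144 h, 0 to 3 at any time and for the effect over time, and 0 to 6 for time in vehicle and in 4-OHT; the highest counts came without replicate C, which leaves 1 array per arm at 144 h. That fit called 50.7% of all probes for time in vehicle and 52.7% in 4-OHT, so 6 of 12 is the share of all probes. Without 1 array of the time the lead Ccnd2 difference ran from -1.40 to -0.88 at 48 h and was called in 0 of 6 cases. No member difference that was called, here or in an alternative, changed sign. Of 1505 values of member differences in the alternatives, 149 had the other sign, none of them called and 0 of them among the 162 values of Ccnd2 at 48 to 144 h. Without replicate C, Ccnd1 ILMN_2669793 at 18 h was 0.32 in place of -0.12 and Myc at 24 h -0.29 in place of 0.09. Of 444 list medians in the alternatives, 50 had the other sign. The arrays can miss changes of Cdk6 and Mycn altogether, since their probes did not rise above background.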
